A study of Mus musculus with 18 samples.

Results

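Gene expression in bone marrow-derived macrophages that lack Irf4 was compared with that in heterozygous macrophages after 4 h of interleukin-4 (IL-4). The comparison rests on 6 arrays of the 18 in the series. They are the 3 samples titled as Irf4-/- with IL-4 for 4 h and the 3 titled as Irf4+/- with IL-4 for 4 h, chosen by title alone and paired by the experiment letters A, B and C. The remaining 12 arrays hold the same genotypes after 18 h without IL-4 (mock) and after 18 h with IL-4. All 18 arrays were fitted together, so the 12 also shape the errors, the p-values and the choice of probes behind the 4 h values. Their own values are given only beside a value after 4 h.

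All mice were on a C57BL6/J background and 8 to 12 weeks old, and each sample came from pooled cells of 2 males and 1 female by its label. Marrow cells were grown with 200 ng/ml human CSF1, the growth factor that drives macrophage differentiation, and mouse recombinant IL-4 was added at 10 ng/ml from day 7. The Irf4-/- macrophages had no intact copy of Irf4. The Irf4+/- macrophages, from littermates, kept 1 functional copy, so the control is itself a heterozygote and no wild-type sample was analysed here. The sources used here do not say how the Irf4 allele was made.

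IRF4 is a transcription factor of the interferon regulatory factor family that binds DNA weakly on its own and is recruited to composite sites by PU.1 and Spi-B, or by BATF together with Jun proteins. In macrophages it is itself induced by IL-4 through STAT6, and it is known for a role in alternative activation, the IL-4-driven state marked by arginase 1, resistin-like alpha and the mannose receptor. Major histocompatibility complex (MHC) class II molecules carry peptides from ingested proteins to CD4+ T cells. Their genes share an upstream module of X and Y boxes on which RFX and NF-Y proteins assemble and to which CIITA, the class II transactivator, is recruited without binding DNA itself.

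Each array was a single-colour Agilent array with 43379 spots that are not controls. On the 3 Irf4-/- arrays, 67.8%, 63.4% and 67.9% of those spots were well above background in experiments A, B and C, against 73.9%, 64.8% and 64.9% on the 3 Irf4+/- arrays. Levels below are log2 intensities relative to the array's own 75th percentile, so 0 marks that percentile and a difference of -1 a level 50% as high. All 20 macrophage markers, among them Adgre1, Cd68 and Lyz2, were well above background on every one of the 6 arrays. In each experiment the Irf4-/- and the Irf4+/- array of the 4 h cultures lay on different slides, and in A they were also scanned on different days. Slide and genotype therefore cannot be told apart within an experiment at 4 h.

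Some values went against the labels or could not check them. Xist, which is transcribed from the inactive X chromosome of female cells, was at -8.32 on the Irf4-/- array of experiment B and at -8.21 on the Irf4+/- array of B. In A and C it was at 0.26 and 0.16 in Irf4-/- macrophages and at -1.08 and 1.89 in Irf4+/- macrophages. Both arrays of B thus lacked the signal of a female contributor that their labels name. The Irf4 probe read 2.11, 1.50 and 1.57 on the Irf4-/- arrays of A, B and C, against 2.26, 1.69 and 1.07 on the Irf4+/- arrays. Its difference, 0.05 ± 0.30 (SE, limma adjusted p = 0.985), was smaller than its error, and the groups overlapped. The gene has 1 probe here, and where that probe lies relative to the deleted part is not given in the sources used, so it does not check the genotypes.

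Of 14951 genes tested, 4 were lower in Irf4-/- macrophages after 4 h of IL-4 at an adjusted p under 0.05, which is 0.0268% of them, and none was higher. The test was limma on all 18 arrays with the experiment letter as a block, adjusted by the Benjamini-Hochberg method. Without adjustment, 1072 genes (7.17%) had a p under 0.05, of which 523 (3.5%) were higher and 549 (3.67%) lower. The 4 genes are H2-Aa, H2-Ab1 and H2-Eb1, which encode chains of the classical MHC class II molecules, and Tnfrsf13c, which encodes the receptor for the B-cell survival factor BAFF. The calls depend on the processing and on single arrays. No gene was called without the block, with only the 6 arrays of the 4 h cultures, after normexp correction (a background distribution fitted to each array) or quantile normalization, or with no filter on dim probes. With each pool of cells as a random block, which allows the arrays of 1 pool to vary together, H2-Ab1 and H2-Eb1 stayed called, while H2-Aa (limma adjusted p = 0.0765) and Tnfrsf13c (limma adjusted p = 0.189) did not. None was called when an Irf4-/- array or the Irf4+/- array of A or B was left out, whereas 2 were called without the Irf4+/- array of C. As fitted, each of the 4 differed by more than 2-fold, whereas the median difference over all genes was -0.01 and the median absolute difference 0.14.

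The upstream sequences of the class II genes are shown first because they carry the X and Y boxes through which this family is read. Promoters running from 250 bases before to 50 bases after each start were taken from RefSeq (build GRCm38.p6), and 11 of the 15 class II genes examined had one. In the windows printed here, 5′ to 3′ along the gene, capitals mark matches to the Y box (TGATTGG) and, where one is found, to the joined X and X2 boxes (AAC with ATGATG after a gap of any 2 bases). H2-Aa lies on the minus strand at chr17:34287862-34287923, and the other windows lie on the plus strand. They are H2-Eb1 at chr17:34305756-34305817, H2-DMb1 at chr17:34153078-34153139, H2-DMb2 at chr17:34145107-34145168, H2-Oa at chr17:34092284-34092345 and H2-Ob at chr17:34238796-34238857.
H2-Aa: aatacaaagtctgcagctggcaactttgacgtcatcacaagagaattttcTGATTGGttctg
H2-Eb1: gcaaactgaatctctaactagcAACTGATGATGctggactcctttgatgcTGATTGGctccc
H2-DMb1: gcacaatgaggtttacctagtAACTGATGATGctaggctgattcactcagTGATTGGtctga
H2-DMb2: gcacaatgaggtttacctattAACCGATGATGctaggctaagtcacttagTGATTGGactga
H2-Oa: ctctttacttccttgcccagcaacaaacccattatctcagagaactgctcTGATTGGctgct
H2-Ob: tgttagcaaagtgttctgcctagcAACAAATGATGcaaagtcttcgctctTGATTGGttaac

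The Y box letters were found in 7 of the 11 class II promoters (those shown and Rfx5), against 7.82% of all 32851 promoters of this length. Its first base lay 50 bases before the start in H2-Aa, 61 in H2-Eb1, 63 in H2-DMb1, 92 in H2-DMb2, 45 in H2-Oa and 59 in H2-Ob. The X and X2 letters were found in 4 of the 11, against 0.14% of all promoters, and began 28 bases upstream of the Y box in H2-Eb1, 29 in H2-DMb1 and H2-DMb2, and 26 in H2-Ob. Both motifs were chosen with these data in view, were searched on both strands and do not overlap in these windows.

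Motifs that IRF4 and its partners are known to bind were counted in the same way. An interferon-response repeat (GAAA and GAAA around a gap of any 2 bases) was found in 3.44% of all promoters. An ETS and IRF composite (GGAA and GAAA around the same gap) was found in 2.72%. The AP-1 and IRF composites were GAAATGA, found in 5.45%, and TTTC with TGA after a gap of any 4 bases, found in 4.56%. The AP-1 site TGANTCA, which can share bases with GAAATGA, was found in 7.81%, and the STAT6 site, TTC and GAA around a gap of any 4 bases, in 6.95%. None of the 3 called genes with a promoter (H2-Aa, H2-Eb1 and Tnfrsf13c) held any of these 6 motifs in the window. Among the 11 class II promoters, Ctss, the gene of the protease cathepsin S, held the interferon-response repeat and GAAATGA, and H2-DMa, H2-DMb1 and Rfx5 held TGANTCA.

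H2-Ab1, which encodes the beta chain of the I-A molecule, was at 4.63, 3.79 and 2.92 in Irf4-/- macrophages of experiments A, B and C, against 5.81, 5.28 and 3.97 in Irf4+/- macrophages. The level was highest in A and lowest in C in both genotypes, so the groups overlapped, but the Irf4-/- array was the lower one in every experiment. The difference was -1.24 ± 0.15 (SE, limma adjusted p = 0.0218), which puts the Irf4-/- level at 42.4% of the Irf4+/- level. The gene's 3 other probes gave -1.38, -1.24 and -1.23, each with an adjusted p of 0.0226 when probes were tested one by one.

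H2-Aa, which encodes the alpha chain of I-A, was at 2.66, 0.91 and 0.23 in Irf4-/- macrophages, against 3.63, 2.55 and 1.28 in Irf4+/- macrophages. It showed the same order of experiments and was again lower in Irf4-/- in all 3 of them. It fell by 1.22 ± 0.17 on the log2 scale (SE, limma adjusted p = 0.0218, and 0.0765 with the pool as a random block), to 42.9% of the Irf4+/- level, and its other probe gave -1.39. H2-Eb1 encodes the beta chain of I-E, a molecule that C57BL/6 mice do not assemble because they lack a working alpha chain gene. It was at 2.40, 1.25 and 0.64 in Irf4-/- macrophages, against 3.48, 2.73 and 1.79 in Irf4+/- macrophages. The difference was -1.24 ± 0.17 (SE, limma adjusted p = 0.0218). In these bulk samples, fewer cells that express a gene and less of its RNA per cell cannot be told apart.

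**Figure D1:**
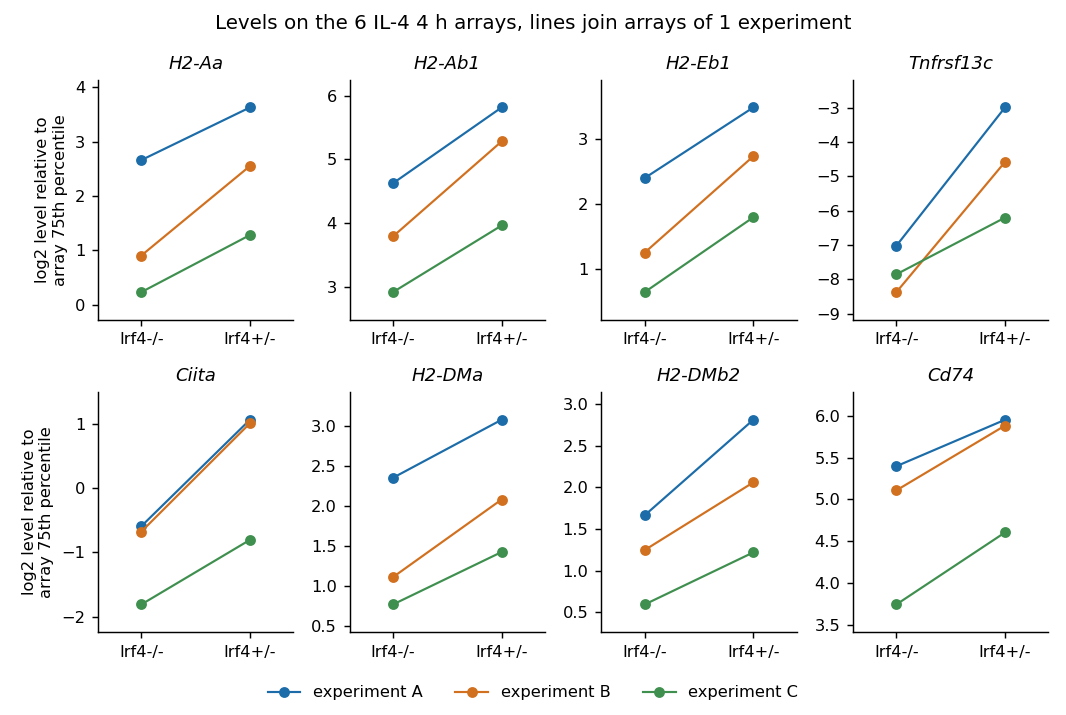
Levels of 8 genes (log2 relative to the array's 75th percentile) on the 6 arrays of the IL-4 4 h cultures, Irf4-/- left and Irf4+/- right, with a line joining the arrays of 1 experiment. Every line runs upward from Irf4-/- to Irf4+/-, with H2-Ab1 at 2.92 to 4.63 in Irf4-/- macrophages and 3.97 to 5.81 in Irf4+/- macrophages.

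Ciita, the transactivator that class II transcription depends on, had the largest difference in the list that was not called, apart from H2-DMb1. Its level was -0.59, -0.68 and -1.81 in Irf4-/- macrophages, against 1.06, 1.00 and -0.81 in Irf4+/- macrophages. It was lower by at least 1.00 in each experiment, and only the Irf4+/- array of C fell within the range of the Irf4-/- arrays. The difference was -1.45 ± 0.23, or 36.7% of the Irf4+/- level, with a limma adjusted p of 0.0912.

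The chaperones of peptide loading gave smaller differences, none of them called. H2-DMa, a chain of the peptide exchange factor H2-M, was at 2.35, 1.11 and 0.77 in Irf4-/- macrophages, against 3.08, 2.08 and 1.42 in Irf4+/- macrophages. Cd74, the invariant chain that occupies the groove until peptide is loaded, was at 5.40, 5.11 and 3.74 in Irf4-/- macrophages, against 5.95, 5.88 and 4.60 in Irf4+/- macrophages. The differences were -0.78 ± 0.16 for H2-DMa (limma adjusted p = 0.28) and -0.73 ± 0.17 for Cd74 (limma adjusted p = 0.496), each negative in A, B and C.

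H2-DMb2, a beta chain of H2-M, differed by -0.86 ± 0.18, and its other probe gave -1.15. H2-DMb1, the second beta chain gene, is near-identical to it, so their probes may share signal. H2-DMb1 was at -0.88, 3.76 and 3.20 in Irf4-/- macrophages, against 3.22, 4.59 and 3.55 in Irf4+/- macrophages. Its difference of -1.76 ± 0.83 rests on experiment A, where the Irf4-/- array alone was below 0 after 4 h. The other Irf4-/- arrays of A were below 0 as well, at -1.025 in mock and -0.777 after 18 h. The matching Irf4+/- arrays of A were at 2.62 and 4.22.

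H2-Oa, whose product inhibits H2-M, was the 1 class II gene of the 15 whose groups did not overlap. It was at -3.06, -3.26 and -3.17 in Irf4-/- macrophages, against -2.13, -2.38 and -2.85 in Irf4+/- macrophages. The difference was -0.71 ± 0.18, and the gene's other probe gave -0.43. Over all genes, 1.65% had 3 Irf4-/- arrays that all lay below the 3 Irf4+/- arrays, and 0.924% had them all above.

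Members that act elsewhere in the pathway differed by less than 0.6. H2-Ob, the partner of H2-Oa, gave -0.53 ± 0.49, with 2 of 3 Irf4-/- arrays above background, and was lower in A and C but higher in B. The Irf4-/- arrays of A read -7.13 after 4 h, -7.34 in mock and -7.19 after 18 h. The subunits of the RFX complex gave -0.12 ± 0.12 for Rfx5, -0.07 ± 0.09 for Rfxap and -0.20 ± 0.15 for Rfxank, and second probes of Rfx5 and Rfxap had the opposite sign (0.25 and 0.02). Ctss gave -0.13 ± 0.20. Ifi30, the lysosomal thiol reductase GILT, gave -0.02 ± 0.16.

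Of the 15 class II genes, 3 were called lower, against 0.0268% of all genes. Another 5 had an unadjusted p under 0.05 in that direction, and 10 were lower in each of the 3 experiments, beside 12.2% of all genes. The list's median difference was -0.73, beside -0.01 for all genes, and within the experiments it was -0.93 in A, -0.81 in B and -0.35 in C. All 15 fitted differences were negative, beside 7884 of the 14951 genes. H2-Ob passed the filter through Irf4+/- groups only, so its sign can be partly set by the filter. The list and its genes were chosen with earlier results of these data known, so the counts describe it and do not test it.

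B cells and dendritic cells also transcribe class II genes and could remain in marrow cultures, so their markers are given beside these values. Of 12 B-lineage markers, 7 were well above background on all 3 Irf4-/- arrays and 9 on all 3 Irf4+/- arrays, and Ebf1 was above it on none. Their summed linear level, in units of the array's 75th percentile, was 18.5, 6.96 and 4.82 in Irf4-/- macrophages of A, B and C, against 25.7, 10.6 and 4.46 in Irf4+/- macrophages. It followed the same order of experiments as the class II levels and was lower in Irf4-/- in A and B but not in C. On a linear scale the brightest marker, Ighm, weighs most in this sum. Cd79b, the next brightest, did not follow that order in Irf4-/- macrophages, where it was lowest in A.

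Ighm, the immunoglobulin mu heavy chain, was at 4.03, 2.21 and 1.30 in Irf4-/- macrophages, against 4.43, 2.86 and 1.03 in Irf4+/- macrophages. Its groups overlapped, with a difference of -0.26 ± 0.20. Cd79b, a signalling chain of the B-cell receptor, was at 0.57, 0.92 and 0.90 in Irf4-/- macrophages, against 1.77, 1.44 and 1.02 in Irf4+/- macrophages. The groups did not overlap, and the difference was -0.62 ± 0.23 (limma unadjusted p = 0.0203, adjusted p = 0.672). Jchain, which joins immunoglobulin polymers, was not well above background on any Irf4-/- array and was so on the 3 Irf4+/- arrays. It was at least 1.41-fold lower (limma adjusted p = 0.635) and was not called.

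The B-lineage list held 9 tested genes with a median difference of -0.19 and no call. Cd79b and Jchain, 2 of the 9, had an unadjusted p under 0.05 and groups that did not overlap, both lower in Irf4-/-. Over all genes, 3.67% had such a p in that direction and 1.65% had such groups. Jchain was tested only because it was well above background on all 3 Irf4+/- arrays after 4 h. That is the group where it was high, so its place in these counts is partly set by the filter. The 10 conventional dendritic cell markers summed to 0.589, 0.332 and 0.44 in Irf4-/- macrophages, against 0.732, 0.474 and 0.359 in Irf4+/- macrophages, with Clec9a and Btla above background on none of the arrays. That sum, too, was lower in Irf4-/- in A and B and higher in C. The pattern is not particular to these cells. The macrophage markers summed to 1340, 1950 and 2140 in Irf4-/- macrophages of A, B and C, against 1730, 2100 and 1650 in Irf4+/- macrophages. Markers of basophils, mast cells and eosinophils had it as well, and the sums of the remaining marker lists did not. Of the 8 conventional dendritic cell markers tested, 6 had negative and 2 positive differences, with a median of -0.18 and no call. The peptidase gene Dpp4 (-0.62, limma unadjusted p = 0.0471) and the integrin gene Itgae (-0.35, limma unadjusted p = 0.0416) were lower in Irf4-/- in all 3 experiments. Beside these 2, 3.67% of all genes had such a p in that direction, and 12.2% were lower in all 3 experiments. The part of other cells in the class II differences was not tested.

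Tnfrsf13c showed the largest difference of the called genes, at a low level. It was at -7.02, -8.37 and -7.85 in Irf4-/- macrophages, against -2.99, -4.58 and -6.20 in Irf4+/- macrophages. The groups did not overlap. The probe was well above background on all 3 Irf4+/- arrays and on no Irf4-/- array, so the level in Irf4-/- macrophages has only an upper bound. It passed the filter through Irf4+/- groups only, so the gap between the groups can be partly set by the filter. In the signal as fitted, it was at least 3.55-fold lower in Irf4-/- macrophages, set against the lowest signal that counted as above background. The limma adjusted p was 0.0218, and 0.189 with the pool as a random block. The size of the difference, and with it this bound, depends on the background correction. The difference was -3.16 ± 0.41 as fitted and -1.12 (limma adjusted p = 0.93) after normexp correction. It was -0.80 (limma adjusted p = 0.891) in a normexp fit without spots far below their local background.

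Of the 4 genes, 3 were also called lower in Irf4-/- macrophages in mock and all 4 after 18 h of IL-4. In mock cultures 5 genes were called (0.0334%), 1 higher (0.00669%) and 4 lower (0.0268%), and after 18 h of IL-4 71 were called (0.475%), 35 higher (0.234%) and 36 lower (0.241%). H2-Aa, H2-Ab1 and H2-Eb1 were among the 4 called lower in mock, which is 75% of the calls lower after 4 h and 75% of those in mock. All 4 genes of the 4 h comparison were also called lower after 18 h, where they made up 11.1% of the 36. The arrays of 1 letter and genotype come from the same pool of cells, so the 3 conditions are not independent samples of animals. No gene was called after 4 h alone.

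The differences of the 3 called class II genes lay between -1.59 and -1.13 in mock, after 4 h and after 18 h. H2-Ab1 differed by -1.17, -1.24 and -1.59 in that order, H2-Aa by -1.13, -1.22 and -1.47, and H2-Eb1 by -1.35, -1.24 and -1.58. Ciita differed by -1.41 in mock, -1.45 after 4 h and -2.27 after 18 h, and it was called after 18 h only. Tnfrsf13c was not well above background on any Irf4-/- array in any condition. In Irf4+/- macrophages it was so on 1 of the 3 mock arrays and on all 3 arrays at each IL-4 time, so its differences have no exact size to set side by side. The list's median was -0.57 in mock, -0.73 after 4 h and -0.93 after 18 h.

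The IL-4 4 h cultures were also set against mock. Mock cultures ran for 18 h, so in this comparison IL-4 and culture time cannot be told apart. For the 3 called class II genes no difference between these cultures was called in either genotype. Against mock, H2-Ab1 differed by -0.08 in Irf4-/- macrophages and -0.01 in Irf4+/- macrophages, both ± 0.15, and the list's median was 0.01 in Irf4-/- and 0.00 in Irf4+/- macrophages. Ciita was higher in the IL-4 4 h cultures than in mock in both genotypes, by 0.89 ± 0.23 in Irf4-/- macrophages (limma adjusted p = 0.0172) and by 0.92 ± 0.23 in Irf4+/- macrophages (limma adjusted p = 0.0135). H2-DMa was also higher in both, by 0.51 ± 0.16 in Irf4-/- macrophages (limma adjusted p = 0.0362) and by 0.77 ± 0.16 in Irf4+/- macrophages (limma adjusted p = 0.00374).

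**Figure D2:**
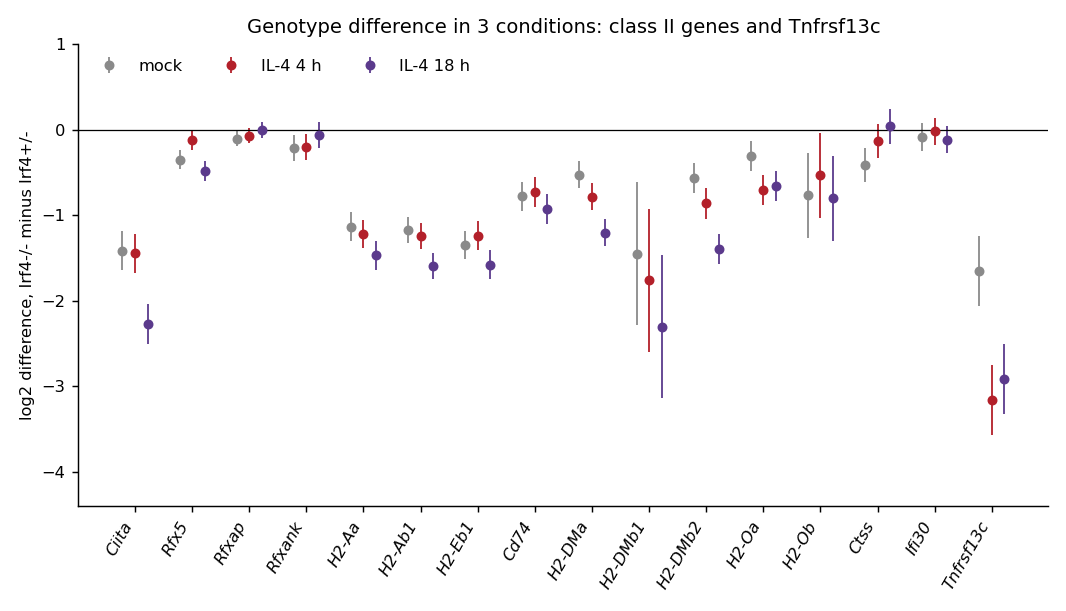
Fitted difference between Irf4-/- and Irf4+/- macrophages (log2, Irf4-/- minus Irf4+/-, bars are the SE of the fit) for the 15 class II genes and Tnfrsf13c in mock, after IL-4 4 h and after IL-4 18 h. The Tnfrsf13c points rest on Irf4-/- signals that were not well above background. H2-Ab1, H2-Aa and H2-Eb1 lie between -1.59 and -1.13 in all 3 conditions, and the Rfx genes, Ctss and Ifi30 lie within 0.5 of 0.

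Whether the genotype difference after 4 h itself differs from that in the other conditions was tested in the same fit. No gene passed, either for 4 h against mock or for 4 h against 18 h, in limma with adjustment over all genes. Without adjustment, 418 genes (2.8%) had a p under 0.05 for 4 h against mock and 254 (1.7%) for 4 h against 18 h. Of the 418, 377 (2.52% of all genes) were on the positive side and 41 (0.274%) on the negative side for 4 h against mock. For 4 h against 18 h, 112 (0.749%) were on the positive side and 142 (0.95%) on the negative side. For H2-Ab1 the difference between the differences was -0.07 ± 0.22 against mock and 0.35 ± 0.22 against 18 h. For Ciita it was -0.03 ± 0.33 against mock and 0.82 ± 0.33 against 18 h (limma unadjusted p = 0.0259). No change of a class II difference between 4 h and the other conditions passed adjustment over all genes. With errors of this size and 3 arrays per group, a change could go uncalled.

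**Figure D3:**
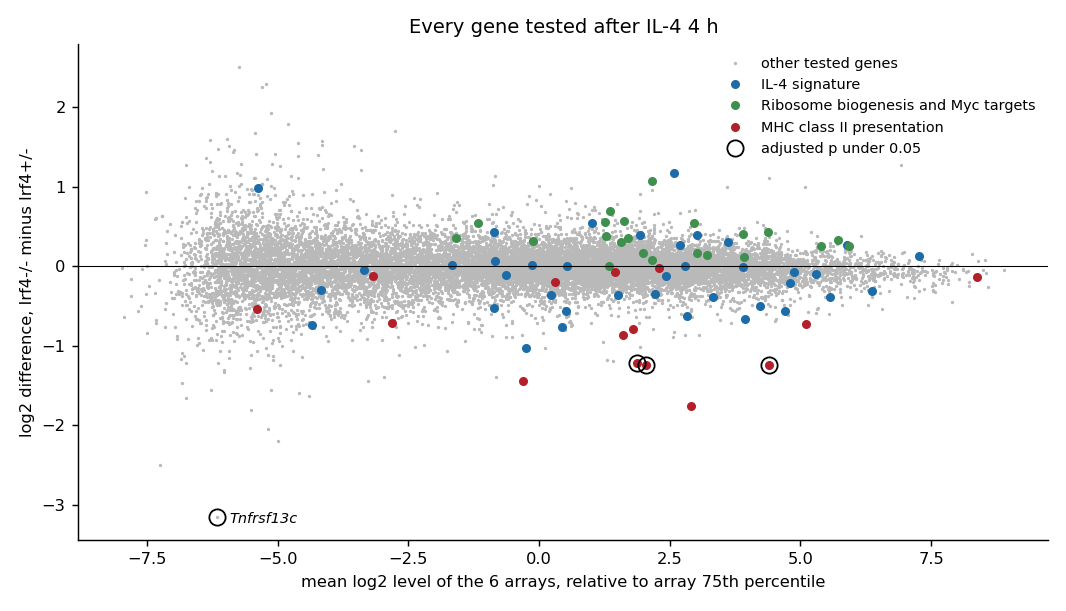
Difference between Irf4-/- and Irf4+/- macrophages after IL-4 4 h (log2, vertical) against the mean level over the 6 arrays (log2 relative to the 75th percentile, horizontal) for the 14951 genes tested, with gene lists in colour. The 3 called class II genes stand at -1.24 to -1.22, and Tnfrsf13c lies lowest, at -3.16, at a low mean level.

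Beyond the called genes, those with the smallest p in each direction are given as values only. Sema6d, which encodes a transmembrane semaphorin, was at -2.34, -2.12 and -2.42 in Irf4-/- macrophages, against -1.02, -1.04 and -1.64 in Irf4+/- macrophages. Its groups did not overlap. The difference was -1.06 ± 0.22 (limma adjusted p = 0.28), its other probe gave -1.28, and it was -0.08 in mock and -1.84 after 18 h, where it was called. Against the 18 h mock cultures, the IL-4 4 h cultures were higher by 0.97 ± 0.22 in Irf4-/- macrophages (limma adjusted p = 0.00757) and by 1.96 ± 0.22 in Irf4+/- macrophages (limma adjusted p = 5.14e-05). The difference of 4 h against mock, -0.99 ± 0.31 (unadjusted p = 0.0073), did not pass adjustment over all genes.

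Of 4 other genes that were called after 18 h, none was called after 4 h. Matn2, a matrix protein, differed by 0.31 after 4 h and 1.43 after 18 h, and Pdk1, a kinase that inhibits pyruvate dehydrogenase, by 0.32 and 0.78. Papss2, a sulphate donor synthase, gave -0.33 after 4 h, where it was well above background on only 1 of 3 arrays in each genotype. It passed the filter through Irf4+/- groups only. Kcna3, a voltage-gated potassium channel, gave -0.25 after 4 h, with 2 of 3 Irf4+/- arrays above background, and after 18 h it was above background on no Irf4-/- array. These 5 genes, Sema6d included, were picked for their values after 18 h in earlier work on these arrays.

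Among genes lower in Irf4-/- without a call, Tnni3, the cardiac troponin I gene, differed by -0.84 ± 0.16 and Xlr3c by -0.99 ± 0.20. In the other direction, Amd1, the enzyme that supplies the aminopropyl donor of polyamine synthesis, was at 3.64, 2.78 and 2.99 in Irf4-/- macrophages, against 3.03, 2.40 and 2.49 in Irf4+/- macrophages. It was higher in every experiment, although the groups overlapped. Its difference was 0.50 ± 0.10 (limma adjusted p = 0.28), and its other probe gave 0.71.

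The remaining uncalled genes at the higher end were mostly dim. Spdl1, a kinetochore adaptor, differed by 0.58 ± 0.12, Ccr3, the eotaxin receptor, by 0.61 ± 0.12, and Plat, the tissue plasminogen activator, by 0.51 ± 0.11. Second probes gave 0.33 for Spdl1 and 0.09 for Ccr3. The olfactory receptor gene Olfr507 differed by 1.13. Gem, a small GTPase, gave 1.44 with 2 of 3 Irf4+/- arrays well above background. Sema3g, a secreted semaphorin, gave 1.60 with 1 of 3 Irf4+/- arrays above it, so neither is an exact size. Sema3g passed the filter through Irf4-/- groups only, so its difference can be partly set by the filter. Another olfactory receptor gene, Olfr38, was not well above background on any Irf4+/- array and was at least 1.96-fold higher in Irf4-/- macrophages (limma adjusted p = 0.263). After normexp correction Ccr3, Gem, Olfr38, Olfr507, Plat and Sema3g turned to the opposite sign, still without a call. They kept their sign under every other alternative, among them a normexp fit without spots far below their local background. Those spots lay mostly on the Irf4+/- mock and 4 h arrays of C (1967 and 1359).

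The genes of the IL-4 response did not pass the test in either direction. Of 40 genes in an IL-4 signature list, 38 were tested. None was called and none had an unadjusted p under 0.05. There were 15 positive and 23 negative differences, with a median of -0.11. The list's median was 0.00 without the Irf4+/- array of B. Ccl22 was not well above background on enough arrays to be tested.

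Arg1, which encodes arginase 1, was at 1.75, 1.89 and 2.71 in Irf4-/- macrophages, against 1.54, 0.84 and 2.80 in Irf4+/- macrophages. Retnla, the gene of resistin-like alpha, was at 3.62, 1.87 and 2.08 in Irf4-/- macrophages, against 4.17, 3.04 and 2.24 in Irf4+/- macrophages. Mrc1, the mannose receptor gene, was at 5.59, 6.10 and 6.40 in Irf4-/- macrophages, against 5.16, 5.99 and 6.15 in Irf4+/- macrophages. The groups overlapped for all 3 genes. Mrc1 was higher and Retnla lower in Irf4-/- macrophages in each experiment, while Arg1 was higher in A and B and lower in C. The differences were 0.39 ± 0.64 for Arg1, -0.63 ± 0.38 for Retnla and 0.27 ± 0.16 for Mrc1.

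The other markers had errors of like size. Chil3, the chitinase-like protein Ym1, differed by 0.26 ± 0.45 and Mgl2, a C-type lectin, by 0.39 ± 0.23. The chemokine genes Ccl24 and Ccl17 differed by -0.76 ± 0.63 and -0.30 ± 0.27. Cdh1, E-cadherin, differed by 0.55 ± 0.36, and Pdcd1lg2, the checkpoint ligand PD-L2, by -0.36 ± 0.52. The feedback genes of the STAT6 pathway, Cish and Socs1, gave -0.50 ± 0.81 and -0.31 ± 0.38. With errors of 0.16 to 0.81 for single genes, differences well above 1 in several of these markers would have gone uncalled.

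**Figure D4:**
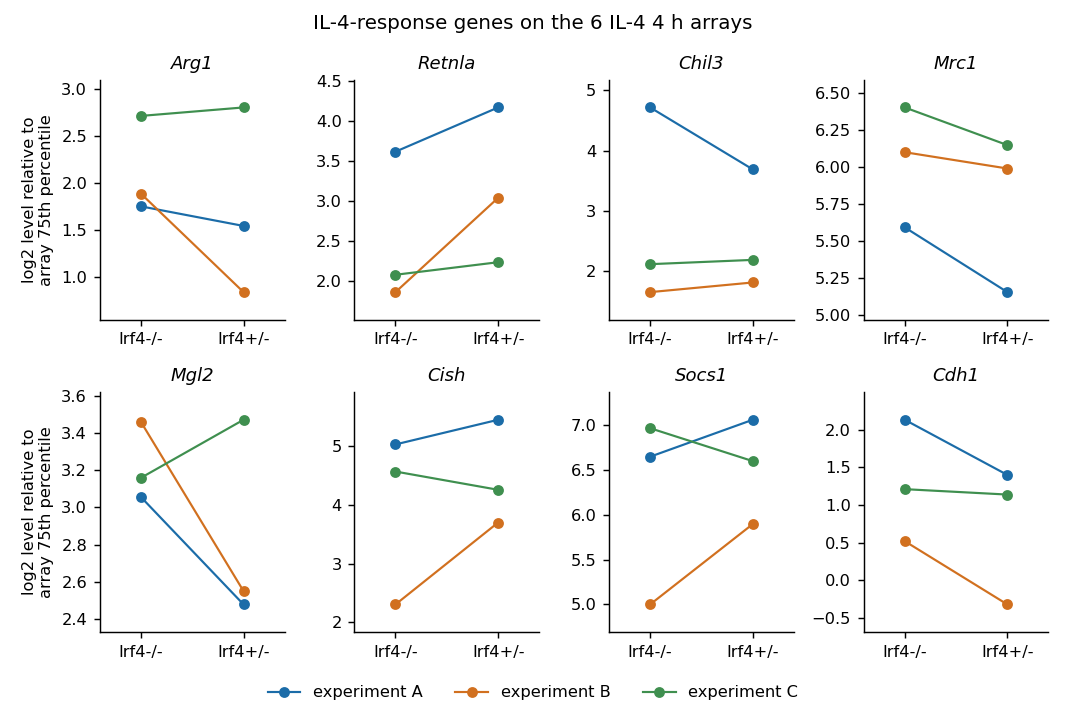
Levels of 8 IL-4-response genes (log2 relative to the array's 75th percentile) on the 6 arrays of the IL-4 4 h cultures, Irf4-/- left and Irf4+/- right, with a line joining the arrays of 1 experiment. The groups overlap in every panel, and the lines run in different directions for Arg1, Chil3, Mgl2, Cish and Socs1.

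Regulators of the response were likewise not called. Il4ra, the IL-4 receptor chain, differed by -0.26 and Stat6, its signal transducer, by -0.15, and 2 further Stat6 probes gave -0.02 and -0.05. Egr2 differed by -0.39, Klf4 by -0.10 and Pparg by -0.31, all transcription factors of alternatively activated macrophages. Irf8, which encodes the closest relative of IRF4, had a difference of -0.09, and Spi1, which encodes PU.1, had one of -0.23.

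Among the partners and targets of IRF4, 27 genes were tested, none was called and the median was -0.15. Prdm1, the repressor Blimp-1, was at -2.04, -1.82 and -1.84 in Irf4-/- macrophages, against -0.91, -0.64 and -1.31 in Irf4+/- macrophages. The Irf4-/- arrays all lay below the Irf4+/- arrays, with a difference of -0.95 ± 0.29 (limma adjusted p = 0.648). Spib, an ETS factor that binds with IRF4, gave -1.12 ± 0.41, with 2 of 3 Irf4-/- arrays well above background. Spib passed the filter through Irf4+/- groups only, so its difference can be partly set by the filter. Jun differed by 0.91 ± 0.29. Batf3, a basic leucine zipper partner, differed by -0.67 ± 0.39.

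Counts of genes that differed between the IL-4 4 h cultures and the 18 h mock cultures are given side by side. Against mock, 2786 genes were called in Irf4-/- macrophages (18.6%), 1545 higher (10.3%) and 1241 lower (8.3%). In Irf4+/- macrophages 2788 were called (18.6%), 1529 higher (10.2%) and 1259 lower (8.42%). These counts do not test a difference between the genotypes; the tests against mock given above do, and called none.

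Genes of growth and proliferation had positive differences without a call. All 22 genes of a ribosome biogenesis list were positive, with a median of 0.34, and 8 had an unadjusted p under 0.05, beside 3.5% of all genes in that direction. They included Rrs1, a ribosome assembly factor, at 0.69 ± 0.24 and Npm1, nucleophosmin, at 0.26. The list's median was 0.47 in A and 0.53 in B but 0.05 in C.

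Myc, which drives these genes, was at 3.38, 1.75 and 2.96 in Irf4-/- macrophages, against 2.27, -0.44 and 3.05 in Irf4+/- macrophages. It was higher in Irf4-/- in A and B only, with a difference of 1.07 ± 0.56. Of 32 DNA replication genes 31 were positive, with a median of 0.24, led by the helicase subunit gene Mcm2 at 0.66 ± 0.25. The 24 mitosis genes had a median of 0.13. Among the genes of arginine and polyamine metabolism, Srm, spermidine synthase, differed by 0.70 ± 0.25. Arg2, the mitochondrial arginase, differed by -1.28 ± 0.75, with 2 of 3 Irf4-/- arrays above background. Arg2 passed the filter through Irf4+/- groups only, so its difference can be partly set by the filter.

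Interferon-stimulated and MHC class I genes had small negative differences. Of 41 interferon-stimulated genes 37 were negative, none was called and none had an unadjusted p under 0.05. Their median of -0.18 was -0.42 in A, -0.08 in B and 0.06 in C, and it turned to 0.02 without the Irf4+/- array of A. Of 15 genes of MHC class I presentation 14 were negative, with a median of -0.20 and no call. Chemokines of inflammation lay on the other side, with Ccl2, a chemokine for monocytes, at 1.27 ± 0.61 and Ccl4 at 0.53, but the median of that list, 0.18, changed sign after normexp correction (-0.25).

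Receptors for the culture's growth factor and for other cytokines were not called. Csf1r, the CSF1 receptor, differed by -0.34 ± 0.13 and Il10ra, the IL-10 receptor chain, by -0.56. The macrophage markers Adgre1, Cd68 and Lyz2 differed by -0.14, -0.09 and 0.15. Of the 20 macrophage markers 14 were negative and 6 positive, with a median of -0.09 and no call. Lower in Irf4-/- with an unadjusted p under 0.05 were 2 of them, beside 3.67% of all genes. The groups of 2, Csf1r and Cd14, did not overlap, both lower in Irf4-/-, beside 1.65% of all genes. Lyz2 is the lysozyme gene and Adgre1 encodes F4/80. The summed level of all 20 macrophage markers was 1340 to 2140 in Irf4-/- macrophages and 1650 to 2100 in Irf4+/- macrophages.

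Genes near Irf4 on chromosome 13 were examined because alleles next to a targeted gene are inherited with it. Within 20 Mb of Irf4, 186 genes were tested and none was called. Of these, 13 (6.99%) had an unadjusted p under 0.05, beside 7.21% of all genes with a position. The neighbours Dusp22 and Exoc2 differed by -0.16 and 0.00.

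**Figure D5:**
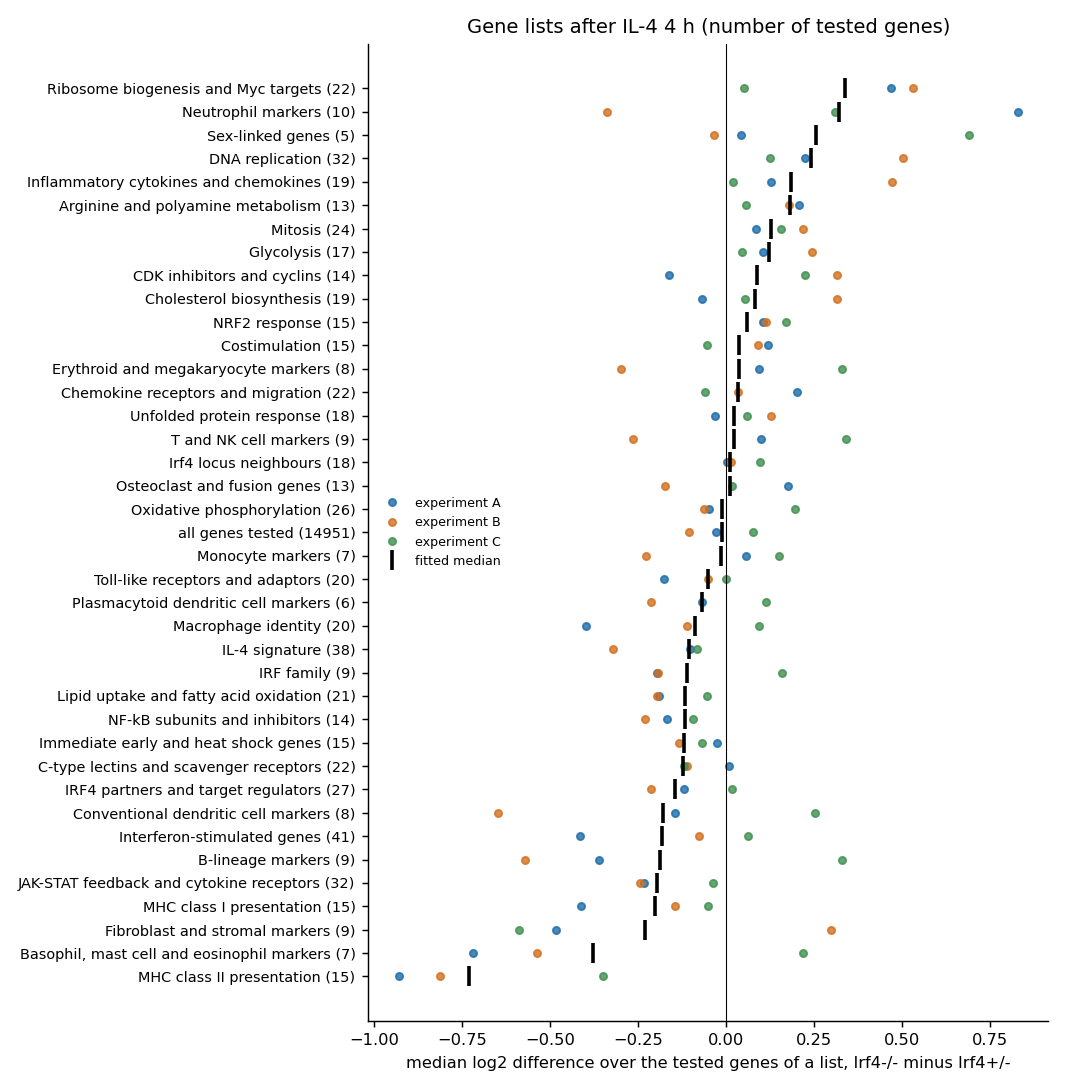
Median log2 difference between Irf4-/- and Irf4+/- macrophages after IL-4 4 h over the tested genes of each list (bar, number of genes in brackets), with the medians of experiments A, B and C as points. MHC class II presentation lies lowest at -0.73 with all 3 experiments below 0, and ribosome biogenesis lies highest at 0.34, with experiment C at 0.05.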

How the data were processed

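The 18 samples (6 groups of 3) each gave 1 single-colour Agilent array of macrophage RNA. Per the file headers, the authors extracted the deposited spot intensity with Agilent Feature Extraction 9.5.1, after background subtraction and detrending and without scaling between arrays. A deposited series table holds log2 values. They matched the log2 intensity less the array's 75th percentile and less the Irf4+/- mock array of the same letter, and were used as an alternative only.

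Here log2 intensity minus each array's 75th percentile was used, without control spots and outlier flags. A probe was kept if 1 or more groups had it well above background on each of their 3 arrays (27505 probes), and the brightest kept probe stood for its gene. Of 41174 probes, 23082 were named by accession, 6582 by symbol, 3073 by synonym and 838 by the file's own name; 7599 had no name. In 51 genes an array value was missing, and the fit used the rest.

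limma 3.58.1 (R 4.3.3, statmod 1.5.0) was fitted to all 18 arrays with 6 group means and the letter as a block, with Benjamini-Hochberg adjustment and a threshold of 0.05. The series' design text states 3 independent experiments on littermates. Same-letter arrays at 4 h deviated together from their group means (correlations 0.733, 0.585 and 0.499), against -0.562 to 0.131 for other letters. Deviations within a group cancel out, so positive same-letter correlations pull the other-letter ones down. The contrast is thus partly set by the centring. The 3 arrays of a letter and genotype share a pool of cells, and the fit counts them as separate samples (10 residual degrees of freedom), so its p-values measure the spread between arrays and can be too small; the consensus correlation within pools was 0.509. The number of arrays limits the precision. A "fold of at least" sets the mean of the brighter group against the higher of the dim probe's own signal and the lowest signal well above background on each array.

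Named genes are all called genes, up to 8 per direction by smallest p, called list members and a set panel; other list members named beside them were picked after their values were seen. Members and lists were chosen with earlier results of these data known. Alternatives covered the block, the arrays fitted, pool or slide as a random block, normexp (offset 50), scaling, the filter, probe choice, outlier flags, the deposited table and leaving out arrays or experiments. The fit was also run on simulated data whose noise was independent between arrays. That simulation left out the correlation within pools, so it does not check whether the p-values are too small.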

Additional observations from a re-analysis of the deposited data

How the results depend on the processing

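Of the alternatives, 4 genes were also called lower with median scaling, the mean of the kept probes, outlier spots kept or the deposited log2 table. With the slide as a random block 3 were called, H2-Ab1, H2-Eb1 and H2-Aa (Tnfrsf13c had a limma adjusted p of 0.0798), and likewise 3 among the 13236 genes well above background on all 18 arrays, where Tnfrsf13c was not tested. The total count of calls and the count of lower calls were both 0 without the replicate block, with only the 6 arrays of the 4 h cultures (with or without the block), after normexp correction, after quantile normalization and with no filter on dim probes (20264 genes). Both were 2 with the replicate block and, as a random block, each pool of cells (H2-Ab1 and H2-Eb1). In a normexp fit added after seeing the data, without spots far below their local background (1967 and 1359 such spots on the Irf4+/- mock and 4 h arrays of C), 4 were called, with Ciita (limma adjusted p = 0.0341) in place of Tnfrsf13c. Leaving out 1 array or 1 experiment gave 0 to 2 calls, all lower. The count was 0 without any of the Irf4-/- arrays or without the Irf4+/- array of A or B, 2 without the Irf4+/- array of C (Tnfrsf13c and H2-Ab1), 0 without experiment A or B and 1 without experiment C (Tnfrsf13c). The cause of these changes was not tested beyond the smaller number of arrays. No gene was called higher, and none differed between 4 h and mock or between 4 h and 18 h, under any alternative run. The size of the class II differences moved little: H2-Ab1 lay between -1.34 and -1.10 over 23 alternatives and was called in 9, H2-Eb1 between -1.32 and -1.12 (called in 8) and H2-Aa between -1.35 and -1.01 (called in 7). Tnfrsf13c lay between -3.91 and -0.80 over 22 alternatives and was called in 6. The median of the class II list stayed between -0.85 and -0.60, and that of ribosome biogenesis between 0.21 and 0.51.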
